A study of Mus musculus with 4 samples.

Results

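Imprinted growth genes were followed in p53-null mouse embryonic fibroblasts (MEFs), the connective tissue cells grown from mouse embryos, in the early phase of reprogramming towards pluripotency. The 9 genes were H19, Igf2, Peg3, Dlk1, Meg3, Peg10, Mest, Grb10 and Plagl1, chosen by name with earlier results of these data known. Their probes were found by matching the RefSeq accession of each array probe to these symbols. Of the 9 genes, 8 had at least 1 matched probe, with 17 probes among the 41174 on the array, and all 8 entered the test among 19171 genes. No probe was matched to H19, which is not analysed here. The cells had received retroviruses for OSK (in this field Oct4, Sox2 and Klf4) or for OSK+Glis1, Glis1 being a Gli-similar zinc finger transcription factor, and RNA was taken on day 5. Each group had 2 one-colour arrays. By their labels all 4 arrays share the p53-null genotype, the OSK factors and the day. The labels call the OSK cells embryonic fibroblasts and the OSK+Glis1 cells iPSC derived from them. Whether both arrays of a group stem from separate cultures is not in the labels. The p-values thus measure the spread between these arrays only, and that spread may be technical.

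Genomic imprinting is the expression of a gene mainly from the copy inherited from the mother or from the copy inherited from the father, set by DNA methylation marks laid down in the germ line. Many imprinted genes act on fetal and placental growth. Genes such as Igf2, Dlk1, Peg3, Peg10, Mest and Plagl1 are expressed from the paternal copy and several of them favour growth, while H19 and Meg3 are noncoding RNAs of the maternal copy and Grb10, expressed from the maternal copy outside the nervous system, restrains insulin and Igf receptor signalling. Imprinted genes lie in clusters that share a control region, and fibroblasts of the embryo are known to express many of them. The arrays measure the total transcript of a gene and do not tell the parental copies apart.

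Of 43379 non-control spots, 59.9% to 65.2% per array gave signal well above background, and 0 reached saturation. With 2 arrays a group, their number limits the precision. Levels below are log2 signals relative to the 75th percentile of the array, so a level of 0 is the signal that 75% of spots lie below, and levels of different probes are not compared with each other. The Glis1 probe gave no check of the labels, with -3.30 ± 0.05 (SD, n = 2) on the OSK arrays against -3.51 ± 0.32 (SD, n = 2) with Glis1, so directions refer to the groups as labelled. The Trp53 (p53) probe lay at -0.25 and 0.44 in OSK and at 0.16 and -0.16 in OSK+Glis1. Whether it covers the deleted part of the gene is not known here. The Pou5f1 (Oct4) probe lay at -4.52 and -5.72 in OSK and at -2.19 and -1.08 in OSK+Glis1 (limma adjusted p = 0.0194). It was well above background on 1 OSK array, and Sox2 on 0. Sox2 and Klf4 did not pass (limma adjusted p = 0.408 and 0.812). Whether these probes cover the transduced sequences is not known here. Among all genes tested, 1160 were higher and 1566 lower in OSK+Glis1 at a limma adjusted p under 0.05, and 42.6% of the calls were thus higher, against 53.03% after centring by array medians and 54.4% in the log2 values that the authors deposited. All 8 fibroblast markers examined (such as Col1a1, Vim and Thy1) were well above background on all 4 arrays. Of these, Col1a1, Thy1 and Lum were lower in OSK+Glis1, and the others, Vim among them, did not pass.

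Plagl1, Peg3 and Peg10 were higher in OSK+Glis1, and the other 5 genes did not pass the test. Plagl1, a zinc finger transcription factor, rose 4.23-fold, Peg3, another zinc finger protein gene, rose 3.17-fold, and Peg10, a gene derived from a retrotransposon and needed for the placenta, rose 8.18-fold. Thus 3 of 8 genes (37.5%) were higher, where 6.05% of all genes tested were higher. Lower were 0 of 8, where 8.17% of all genes were lower. Peg10 entered the test through OSK+Glis1 alone, with 1 of the 2 OSK arrays well above background. The size of its rise depends on the background correction, as given below. Among genes well above background on all 4 arrays, 2 of 7 were higher, beside 935 of 17350 over all genes. The median difference of the 8 genes was 0.62 on the log2 scale, beside 0.05 for all genes. The ligand genes Igf2 and Dlk1, the receptor adaptor gene Grb10, the hydrolase-like gene Mest and the noncoding RNA gene Meg3 had adjusted p-values from 0.222 to 0.730 in limma. The count of higher genes was 1, Plagl1, without OSK+Glis1 replicate 2. It was 0 with normexp background correction, under which limma called 0 of all 19171 genes (1481 at an unadjusted p under 0.05), and 3 once flagged local backgrounds were replaced.

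**Figure D1:**
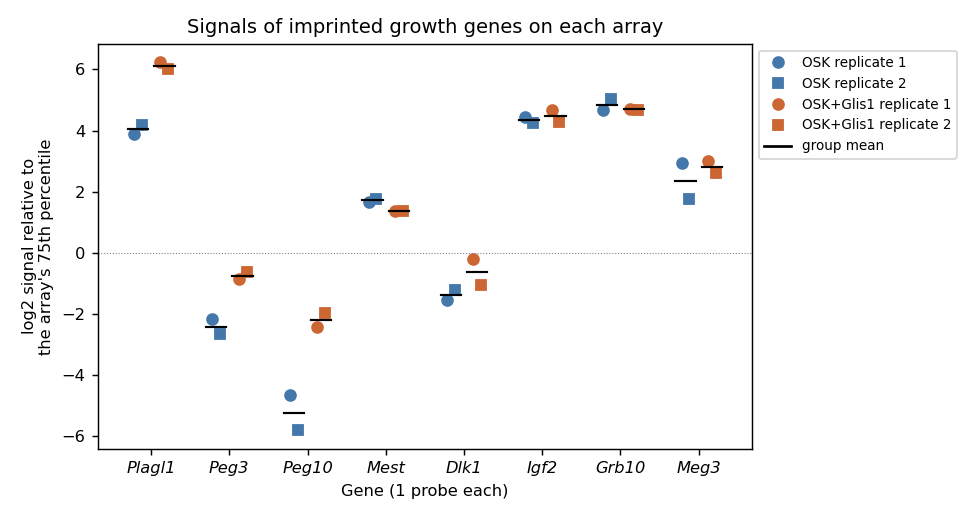
Log2 signal relative to the 75th percentile of the array (y axis) for the probe that stands for each of the 8 measured genes (x axis), with points for each array (circles replicate 1, squares replicate 2) and lines at the group means. For Plagl1, Peg3 and Peg10 both OSK+Glis1 arrays lie above both OSK arrays by more than the gap within either group.

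The promoters of Plagl1 and Peg3 are shown because both genes rose and both act as DNA-binding zinc finger factors. Sequences are from RefSeq (build GRCm38.p6), 250 bases before to 50 after the transcript start, 5′ to 3′ on the strand of the gene. In all, 14 promoters of 7 of the genes were matched, since several genes have more than 1 start, and neither Peg10 nor H19 had an entry. Capitals mark GGGGCCCC, the kind of GC-rich palindrome known to be bound by Plagl1.
Plagl1 (chr10:13090582-13090881, + strand): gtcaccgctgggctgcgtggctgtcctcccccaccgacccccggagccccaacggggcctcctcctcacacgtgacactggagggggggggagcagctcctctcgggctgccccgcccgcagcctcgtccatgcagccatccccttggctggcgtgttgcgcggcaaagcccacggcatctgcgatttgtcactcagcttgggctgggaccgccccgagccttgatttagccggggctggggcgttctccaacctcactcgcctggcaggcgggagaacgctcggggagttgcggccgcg
Peg3 (chr7:6730370-6730669, - strand): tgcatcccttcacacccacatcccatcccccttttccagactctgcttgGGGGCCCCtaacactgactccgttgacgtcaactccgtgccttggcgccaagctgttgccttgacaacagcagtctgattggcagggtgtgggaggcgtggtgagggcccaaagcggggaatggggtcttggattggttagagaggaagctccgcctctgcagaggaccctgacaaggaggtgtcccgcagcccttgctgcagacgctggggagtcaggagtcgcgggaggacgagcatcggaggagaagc

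The motif GGGGCCCC reads the same on both strands. It was found in 1 of the 14 promoters, that of Peg3, where it begins at position -201 relative to the transcript start. Among 32851 promoters of this length it was found in 354 (1.08%). The promoters of Plagl1 and Peg3 hold 26 and 13 CpG dinucleotides in 300 bases, while the median over all promoters is 7. GCCATNTT, the core of the sequence bound by the factor Yy1, was searched on both strands as well and was found in 0 of the 14 promoters and in 6.05% of all promoters. These matches describe letters in the window and are not evidence of binding.

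Plagl1, also named Zac1, is a paternally expressed transcription factor that acts on other imprinted genes and can arrest the cell cycle. Its probe A_52_P532456 lay at 3.90 and 4.20 on the OSK arrays and at 6.23 and 6.03 on the OSK+Glis1 arrays. The groups did not overlap, and the gap between them was several times the gap within either group. Plagl1 rose by 2.08 ± 0.20 SE on the log2 scale (95% interval 1.57 to 2.59, limma adjusted p = 0.00543). In processed intensity this was 14213 and 12255 units in OSK against 63435 and 61855 units in OSK+Glis1. Its other probe, A_51_P432034, lay at -1.92 and -1.85 in OSK and at 0.47 and 0.27 in OSK+Glis1, a difference of 2.25 ± 0.17 SE (limma adjusted p over probes = 0.00374). Both probes of the gene therefore gave a rise of similar size.

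Peg3, also named Pw1, encodes a large zinc finger protein and is known for its part in fetal growth, maternal behaviour and muscle and fat progenitors. Probe A_51_P206037 lay at -2.16 and -2.67 in OSK and at -0.87 and -0.63 in OSK+Glis1. The groups did not overlap. Peg3 rose by 1.66 ± 0.24 SE on the log2 scale (95% interval 1.03 to 2.29, limma adjusted p = 0.0155). The second probe, A_52_P235861, lay at -4.05 and -4.50 in OSK and at -2.69 and -2.12 in OSK+Glis1, and differed by 1.87 ± 0.28 SE (limma adjusted p over probes = 0.0175). The Peg3 call did not hold without OSK replicate 2 (limma adjusted p = 0.0619), without OSK+Glis1 replicate 1 (0.0504) or without OSK+Glis1 replicate 2 (0.0644), while the difference stayed between 1.41 and 1.78 on the log2 scale. It also did not hold without a filter on dim probes, where 32172 genes were tested (limma adjusted p = 0.0528).

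Peg10 was measured near background in OSK. Its single probe gave -4.66 and -5.82 in OSK and -2.44 and -1.97 in OSK+Glis1. On OSK replicate 2 the signal was not well above background and was under -5.56, the lowest level well above background there, so 1 of the 2 OSK arrays measured the gene. The processed intensities were 37.7 and 11.9 units in OSK and 155 and 243 units in OSK+Glis1. Peg10 rose by 3.03 ± 0.43 SE on the log2 scale (95% interval 1.90 to 4.16, limma adjusted p = 0.0148). Without OSK replicate 2 the difference was 2.45 and the call held (limma adjusted p = 0.0434), whereas without OSK+Glis1 replicate 2 it was 2.79 with an adjusted p of 0.0513 in limma. With normexp background correction and replaced local backgrounds the difference was 1.38, and the call held (limma adjusted p = 0.00217).

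**Figure D2:**
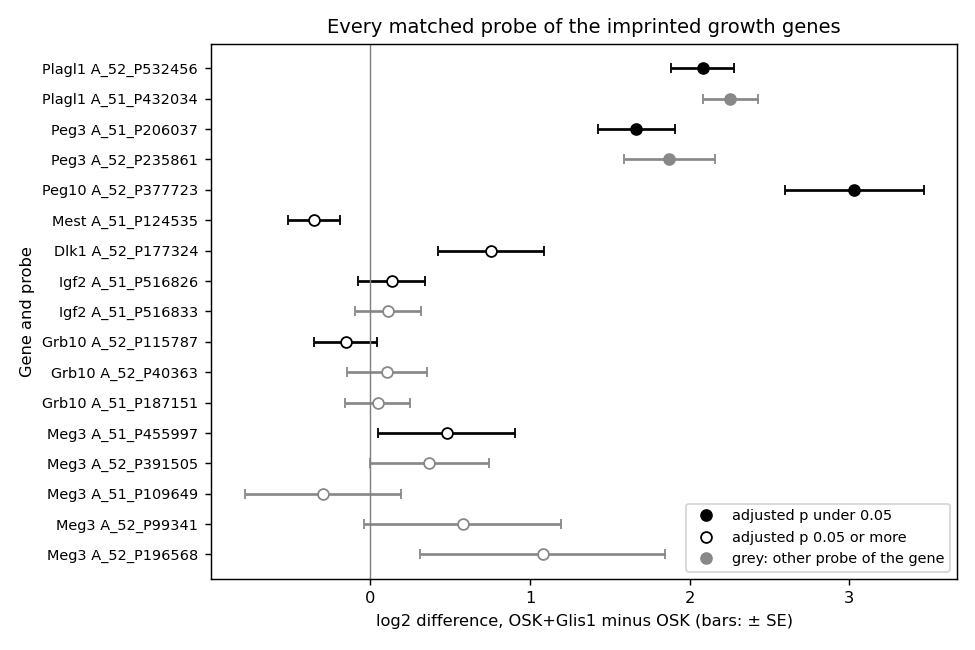
Log2 difference between OSK+Glis1 and OSK (x axis) with its standard error for all 17 matched probes (y axis). Filled points passed an adjusted p of 0.05 over the probes tested, and grey points are further probes of a gene. Both Plagl1 probes, both Peg3 probes and the Peg10 probe are filled, and those of Igf2, Grb10, Meg3, Mest and Dlk1 are open.

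Tested probe by probe, 3466 of 25874 probes (13.4%) passed, and 5 of the 17 matched probes did, all of Plagl1, Peg3 and Peg10. This reading was added after the data had been seen. Of the 17 probes, 16 were well above background on all 4 arrays. Where a gene had several probes, those of Plagl1, Peg3 and Igf2 each moved the same way, whereas 1 of 5 Meg3 probes and 1 of 3 Grb10 probes differed in sign from the rest.

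Igf2, the fetal growth factor that signals through the Igf1 receptor, was well above background on all 4 arrays. Its main probe, A_51_P516826, lay at 4.44 and 4.25 in OSK and at 4.66 and 4.29 in OSK+Glis1, and the groups overlapped. The log2 difference was 0.13 ± 0.21 SE (95% interval -0.41 to 0.67, limma adjusted p = 0.730), and it was -0.051 without OSK+Glis1 replicate 1. This probe is printed as 10 spots per array, and the SD among the spots of an array was 0.06 to 0.08 on the log2 scale, smaller than the SD between arrays of a group (0.13 in OSK and 0.26 in OSK+Glis1). A change as large as that of Peg3 lies outside its interval.

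Dlk1, a transmembrane relative of the Notch ligands that holds back fat cell formation, lay at -1.53 and -1.23 in OSK and at -0.20 and -1.05 in OSK+Glis1. Both OSK+Glis1 arrays lay above both OSK arrays, but replicate 2 of the former by little. The log2 difference was 0.75 ± 0.33 SE (95% interval -0.11 to 1.62, limma adjusted p = 0.222), and the interval stops just short of the rise of Peg3. Groups without overlap were found for 5 of the 8 genes (62.5%) and for 59.9% of all genes tested, a similar share. Of the 8 genes, 4 lay higher without overlap, beside 33.4% of all genes, and 1, Mest, lay lower without overlap, beside 26.6%.

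Grb10, an adaptor that binds the insulin and Igf1 receptors and dampens their signal, was close between groups. Its brightest probe, A_52_P115787, lay at 4.68 and 5.03 in OSK and at 4.72 and 4.67 in OSK+Glis1. The log2 difference was -0.16 ± 0.20 SE (95% interval -0.67 to 0.36, limma adjusted p = 0.663). The other probes differed by 0.10 and 0.05, and the sign of the gene's difference turned with the median over probes, with normexp background correction and without OSK replicate 2. Mest, which encodes a protein of the alpha/beta hydrolase fold, lay at 1.67 and 1.77 in OSK and at 1.37 and 1.36 in OSK+Glis1. Its arrays agreed closely within each group. The log2 difference of Mest was -0.35 ± 0.16 SE (95% interval -0.78 to 0.07, limma adjusted p = 0.241).

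Meg3, also named Gtl2, is a long noncoding RNA of the maternal copy and had 5 probes. The brightest, A_51_P455997, lay at 2.93 and 1.76 in OSK and at 3.02 and 2.62 in OSK+Glis1, with OSK replicate 1 inside the range of the other group. The log2 difference was 0.48 ± 0.43 SE (95% interval -0.64 to 1.59, limma adjusted p = 0.533), and it was -0.11 without OSK replicate 2. Over the 5 probes the differences ran from -0.30 to 1.08. In all 5 probes OSK replicate 1 exceeded OSK replicate 2, by 1.17, 0.98, 1.42, 1.85 and 1.12 on the log2 scale. The SD of that gap over all genes was 0.51. Between the OSK+Glis1 arrays the same probes differed by 0.40, 0.37, -0.26, -0.24 and 2.06, so the last probe differed more there than in OSK.

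A gap between the OSK arrays in the same direction was seen in neighbours of Meg3, which share its imprinted cluster with Dlk1. Rian, a further maternal noncoding RNA, lay at -0.08 on OSK replicate 1 and at -3.57 on OSK replicate 2, a gap larger in size than that of 99.9% of probes tested. Dio3, which encodes the enzyme that inactivates thyroid hormone, lay at 0.15 and -1.90 on these arrays. On the OSK+Glis1 arrays Rian lay at -3.33 and -3.08 and Dio3 at -3.22 and -3.24, so Rian was near its lower OSK array there and Dio3 was below both OSK arrays. Dlk1 did not share the gap, with replicate 1 below replicate 2 by 0.31. The test between groups gave Dio3 a log2 difference of -2.35 ± 0.68 SE (limma adjusted p = 0.0946) and Rian one of -1.38 ± 1.14 SE (limma adjusted p = 0.494). The gap was singled out after the values were seen, and what sets the OSK arrays apart here was not tested.

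Neighbours within the clusters moved in both directions. Of 19 neighbours listed for 6 clusters, that of Dlk1 and Meg3 included, 14 were tested. Of these, 2 were higher and 2 lower, where 6.05% of all genes were higher and 8.17% lower. Both higher neighbours, Ins2 and Asb4, entered the test through OSK+Glis1 alone, so the filter favoured a higher call for them. The count of higher neighbours is therefore not read against the share of all genes. Both lower neighbours, Ddc and Cobl, were well above background on all 4 arrays. Ascl2, Cd81 and Tssc4 were listed with Igf2 but belong to the adjoining Kcnq1 domain, whose other genes were not counted here. Beside Peg10, the ankyrin repeat gene Asb4 lay at -4.88 and -5.61 in OSK and at -1.96 and -2.44 in OSK+Glis1, with 1 of the 2 OSK arrays well above background. Asb4 rose by 3.04 ± 0.33 SE on the log2 scale (8.23-fold, limma adjusted p = 0.00706), and by 1.54 under normexp with replaced local backgrounds (limma adjusted p = 0.00157). Sgce, whose promoter region adjoins that of Peg10, lay at 3.52 and 3.33 in OSK and at 3.85 and 3.91 in OSK+Glis1, a log2 difference of 0.45 ± 0.17 SE (limma adjusted p = 0.169). For Ppp1r9a, Pon2 and Pon3 of the same cluster the differences were 0.44, 0.67 and -0.29, with limma adjusted p-values of 0.266, 0.0715 and 0.329.

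Beside Grb10, both tested neighbours fell. Cobl, an actin-nucleating protein gene, lay at 2.67 and 2.35 in OSK and at -0.93 and -0.65 in OSK+Glis1. It fell by 3.30 ± 0.21 SE on the log2 scale (9.84-fold, limma adjusted p = 0.00262). Ddc, which encodes the decarboxylase that makes dopamine and serotonin, lay at 0.39 and 0.07 in OSK and at -1.43 and -1.34 in OSK+Glis1 and fell by 1.62 ± 0.19 SE on the log2 scale (limma adjusted p = 0.00916). Grb10 itself showed no such fall, and a 2-fold change of it in either direction lies outside its interval. In the Igf2 cluster the insulin gene Ins2 was well above background on 0 OSK arrays and on both arrays with Glis1. Ins2 was 1.90-fold higher (log2 difference 0.93 ± 0.17 SE, limma adjusted p = 0.0317). This fold is fitted and is no lower bound, since both OSK signals exceeded the lowest signal well above background on their arrays. Copg2, the neighbour of Mest, had a log2 difference of 0.09 (limma adjusted p = 0.826), and no neighbour of Peg3 passed the filter on dim probes.

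**Figure D3:**
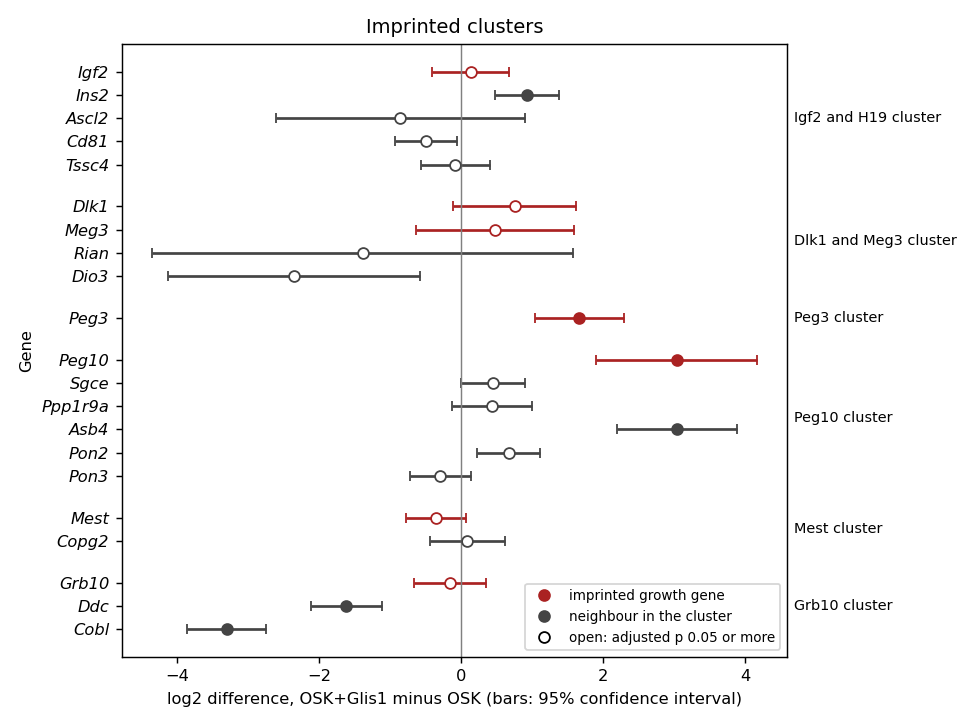
Log2 difference between OSK+Glis1 and OSK (x axis) with its 95% confidence interval for the measured imprinted growth genes (red) and their tested neighbours (dark grey), grouped by imprinted cluster (right). Ascl2, Cd81 and Tssc4, drawn with Igf2, belong to the adjoining Kcnq1 domain. Filled points passed a limma adjusted p of 0.05. Peg10 and Asb4 are both near 3, while Grb10 is near 0 beside Ddc and Cobl at -1.62 and -3.30.

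Across imprinted genes beyond the 9, 43 of 56 listed were tested, with 7 higher and 7 lower, or 32.6%, where 14.2% of all genes passed. Their median log2 difference was -0.08, also with genes not well above background at their bounds. Of the genes called, Ins2, Rasgrf1, Kcnq1 and Asb4 entered the test through OSK+Glis1 alone and Magel2 through OSK alone. Among genes well above background on all 4 arrays, 3 of 37 were higher and 6 lower. Over all such genes, 935 of 17350 were higher and 1323 lower. Cobl and Asb4, described above, were among the genes called, as were Rasgrf1 and Kcnq1. Rasgrf1, a Ras activator expressed from the paternal copy in brain, was well above background with Glis1 on both arrays and on 0 OSK arrays, at least 5.07-fold higher on the processed signals (adjusted p of the fitted difference in limma 0.00497). The size depends on the background correction, with a log2 difference of 0.75 under normexp with replaced local backgrounds (limma adjusted p = 0.0343). Kcnq1, a potassium channel gene, lay at -5.17 and -5.27 in OSK, with 1 array well above background, and at -1.23 and -2.67 in OSK+Glis1. It rose by 3.27 ± 0.49 SE on the log2 scale (9.65-fold, limma adjusted p = 0.0168), but leaving out OSK replicate 1 or 2 ended the call (0.0982 and 0.111 in limma) at log2 differences of 3.32 and 3.22. Under normexp with replaced local backgrounds the difference of Kcnq1 was 1.71 (limma adjusted p = 0.0107). Leaving out OSK replicate 1 or OSK replicate 2 brought the count of higher genes to 3, as it was when genes dim on any array were left out.

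The partners through which Igf2 acts were read from a list of receptors, binding proteins and adaptors. Of 17 tested, 3 were higher and 3 lower, or 35.3%, where 14.2% of all genes passed, and the median log2 difference was 0.04. Its receptor Igf1r lay at 2.01 and 1.501 in OSK and at 2.14 and 2.41 in OSK+Glis1, which differed by 0.52 ± 0.25 SE (limma adjusted p = 0.249). The clearing receptor Igf2r, itself imprinted, lay at 1.99 and 2.10 in OSK and at 2.54 and 2.21 in OSK+Glis1 (0.33 ± 0.19 SE, limma adjusted p = 0.342). Among the binding proteins, which hold Igf in the extracellular space, 2 rose and 1 fell, as did Igfals, the subunit that joins Igfbp3 in the circulating complex. Igfbp4 lay at -1.92 and -1.04 in OSK and at 5.14 and 4.48 in OSK+Glis1, and Igfbp5 at 0.31 and 0.32 against 5.08 and 4.27. Igfbp4 rose 78.1-fold (log2 difference 6.29 ± 0.39 SE) and Igfbp5 20.6-fold (4.36 ± 0.31 SE), while Igfbp3 fell by 2.08 ± 0.19 SE and Igfals by 2.29 ± 0.22 SE on the log2 scale, with limma adjusted p-values from 0.00253 to 0.00576. Under normexp with replaced local backgrounds Igfals fell by 1.17. The binding protein genes Igfbp2 and Igfbp7 had log2 differences of -0.36 and 0.21 and limma adjusted p-values of 0.619 and 0.814. The remaining calls were Grb14, a relative of Grb10, which rose by 1.63 on the log2 scale, and the insulin receptor substrate gene Irs1, which fell by 1.24 on the log2 scale (limma adjusted p = 0.00839 and 0.0188). Both were named after their values were seen.

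Of 16 tested genes listed for imprint maintenance and DNA methylation, 2 were higher and 0 lower, 12.5%, near the share of all genes. The de novo methyltransferase gene Dnmt3b rose by 2.87 ± 0.24 SE on the log2 scale (7.33-fold, limma adjusted p = 0.00422). Dppa3, which shields imprints in the early embryo, was well above background on 0 OSK arrays and at least 2.53-fold higher with Glis1 on the processed signals (adjusted p of the fitted difference in limma 0.0137), but leaving out OSK replicate 1 or 2 ended the call (0.0688 and 0.0952 in limma). Normexp with replaced local backgrounds ended it too, with a log2 difference of 0.54 (limma adjusted p = 0.0948). The maintenance methyltransferase gene Dnmt1 lay at 2.62 and 3.17 in OSK and at 2.78 and 2.89 in OSK+Glis1, which differed by -0.06 ± 0.24 SE (limma adjusted p = 0.901). Zfp57 and Trim28, which hold methylation at imprinted control regions, had log2 differences of -0.68 and 0.46 and limma adjusted p-values of 0.234 and 0.247. Methylation itself was not measured on these arrays. The count of higher genes was 1, Dnmt3b, without OSK replicate 1 or without OSK replicate 2, and 1 when genes dim on any array were left out.

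**Figure D4:**
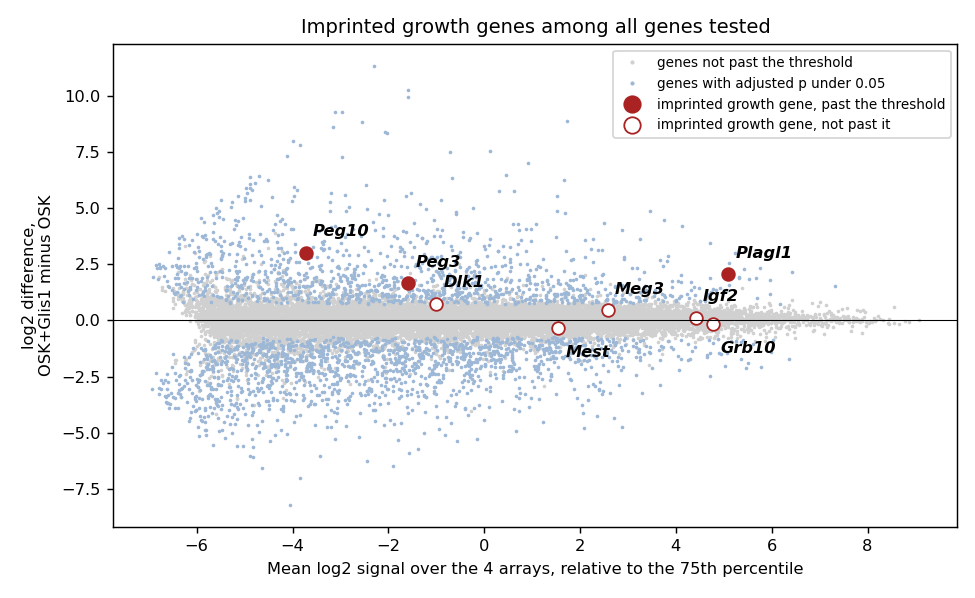
Log2 difference between OSK+Glis1 and OSK (y axis) against the mean log2 signal over the 4 arrays (x axis) for all 19171 genes tested, with genes past the threshold in blue and the 8 imprinted growth genes in red. Plagl1, Peg3 and Peg10 lie above 0 at 2.08, 1.66 and 3.03, and the other 5 genes lie between -0.35 and 0.75.

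Set among all genes tested, a larger absolute difference than that of Plagl1 was found for 6.09% of genes, than that of Peg3 for 8.77% and than that of Peg10 for 2.89%. By Euclidean distance over the 4 arrays, after centring each gene on its mean, the named genes nearest to Plagl1 were Bbs1, Steap1 and Esam (0.12, 0.13 and 0.15), and those nearest to Peg3 were Slc22a21, Spata24 and Rims2 (0.13, 0.17 and 0.17). The nearest to Dlk1 were Rassf8, Arl4c and Nox4 (0.04, 0.04 and 0.06), and to Meg3 Atp1b2, Slain1 and Ctbs (0.10, 0.15 and 0.15). With 4 arrays such likeness is only a description.

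Markers of several cell types were read on the same arrays. In bulk RNA, fewer cells of a type and less RNA per cell cannot be told apart. Of 5 neural markers 4 were tested, with 3 higher (Nes, Dcx and Pax6) and 1 lower. Nes, an intermediate filament gene of progenitors, lay at 2.08 and 2.60 in OSK and at 5.33 and 4.70 in OSK+Glis1, while Tubb3, the neuronal tubulin gene, fell by 3.47 on the log2 scale (limma adjusted p = 0.0109). Dcx was well above background on 1 OSK array and Pax6 on 0. The summed level of the list, which Nes makes up almost alone in OSK+Glis1, in multiples of the 75th percentile, was 8.49 and 16.3 in OSK and 41.0 and 26.7 in OSK+Glis1. The part of these differences in the rise of Peg3 and Peg10 was not tested. None of the 6 trophoblast markers on the array passed the filter on dim probes, and their summed level was 0.302 and 0.0380 in OSK and 0.0267 and 0.0211 in OSK+Glis1. Of 6 skeletal muscle markers Myod1, Myog, Ckm and Myf5 were not well above background on any array, Acta1 did not pass (log2 difference 0.08) and Des passed as higher (limma adjusted p = 0.013, at least 1.03-fold, with 0 OSK arrays well above background). Of 5 hepatoblast and yolk sac markers, Afp, Ttr, Apoa1 and Apoa4 were likewise not well above background on any array, and Alb was measured with a log2 difference of -1.11 (limma adjusted p = 0.202). Among pluripotency markers 2 of 6 were higher, Dppa3 and Esrrb, both well above background on 0 OSK arrays, where 6.05% of all genes were higher. Both entered the test through OSK+Glis1 alone, so their count is not read against that share. The Dppa3 call also ended under normexp with replaced local backgrounds, as given above. The other pluripotency markers tested did not pass, with log2 differences of 0.84 for Tdgf1, -0.01 for Utf1, -1.06 for Dppa5a and -1.68 for Zfp42. The summed level of this list was 1.89 and 0.740 in OSK and 0.589 and 1.21 in OSK+Glis1. Of the endothelial markers 1 of 2 tested was higher, Kdr (log2 difference 2.28), while Tek differed by -0.85 (limma adjusted p = 0.115). Their summed level was 1.62 and 1.17 in OSK and 0.941 and 1.27 in OSK+Glis1. Of the leukocyte markers 0 of 1 was higher.

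**Figure D5:**
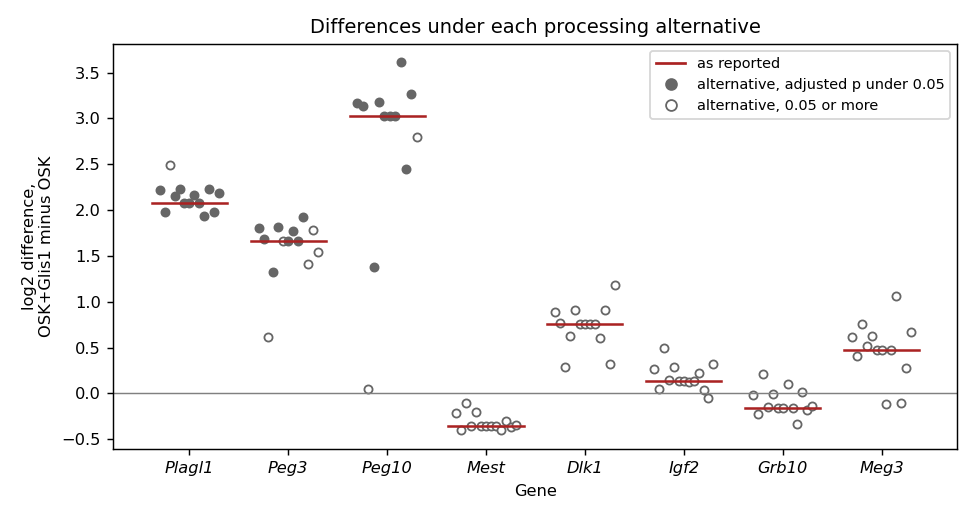
Log2 difference between OSK+Glis1 and OSK (y axis) for each measured imprinted growth gene (x axis) as reported (red line) and under each processing alternative (points, filled where the limma adjusted p was under 0.05). Plagl1 stays between 1.93 and 2.49, while Igf2, Grb10 and Meg3 lie on both sides of 0.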

How the data were processed

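Total RNA from 4 samples (2 OSK, 2 OSK+Glis1) carried Cy3 on one-colour Agilent arrays, per the labels. For each array the authors deposited a scanner table whose intensity columns come from Agilent Feature Extraction 10.7.3.1, as its header states. The processed intensity already has background subtracted, with no normalization across arrays. The authors also deposited a series table of log2 values made in a way not given in the sources used here. Compared with the scanner intensities, 99.8% of probes lay within 0.01 of 1 constant per array, so the scale is log2 and each array was centred on its median (column medians from -0.00016 to 0.000216). The tool is unknown.

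Here the 75th percentile of each array was subtracted from the log2 processed signal (percentiles 951 and 669 for OSK, 844 and 949 for OSK+Glis1). Control and outlier spots were removed, repeat spots were averaged, and 71 probes lacking a usable spot on some array were dropped. Tested probes were well above background on both arrays of OSK, of OSK+Glis1 or of both groups. Accessions were matched without versions to a RefSeq table (GRCm38.p6), which named 26933 of 41174 probes. The array annotation names build mm9, so that table's coordinates are not printed. A gene is read from its probe with the highest mean. Groups were compared with limma 3.58.1 in R 4.3.3 (lmFit and eBayes, two-sided), with Benjamini-Hochberg adjustment over 19171 genes and a threshold of 0.05 (2 residual and 2.82 prior degrees of freedom). An exact permutation test of 2 against 2 arrays cannot go below p = 0.333. Where no array of a group was well above background, the fold is a bound: the brighter mean over a dim mean that takes, per array, the probe's signal or the lowest signal well above background, whichever is higher. For Ins2 the probe's signal was the higher on both OSK arrays, so its fold is the fitted one. The steps were tested on simulated data.

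Normexp correction used the median spot intensity and local background intensity in place of the mean spot intensity first intended. Alternatives were median centring, quantile normalization, normexp, the deposited values, other filters on dim probes, the median over probes, a replicate block and leaving out each array, and they kept the genes and probes of the fit above unless they concern the filter or probe choice. The 9 genes, the lists, the markers and the alternatives were chosen with earlier results of these data known. Named were the 9 genes, their cluster neighbours and, of each list, up to 4 genes past the threshold with the largest differences. The replicate numbers were not taken to pair the samples, since the correlation of same-numbered deviations across genes was 0.01. The names of the deposited tables also tie same-numbered samples by a digit whose meaning is not given.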

Additional observations from a re-analysis of the deposited data

How the results depend on the processing

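Plagl1 was called under 12 of 13 alternatives, Peg10 under 10 of 12 and Peg3 under 8 of 13, all with the same sign as reported. Igf2, Dlk1, Meg3, Mest and Grb10 were called under none of 13. Signs turned, without a call, for Meg3 (-0.11) and Grb10 (0.10) with the median over probes and for Grb10 with normexp (0.21). Leaving out 1 array in turn gave -0.051 to 0.32 for Igf2, -0.11 to 1.06 for Meg3 and -0.33 to 0.019 for Grb10. With normexp on spot and local background signals, limma called 0 genes, so the counts were 0 higher and 0 lower in every list, with 1481 genes at an unadjusted p under 0.05. There Peg3, Peg10 and Plagl1 differed by 0.62, 0.05 and 2.49, and the signs of Rasgrf1 (-0.65) and Dppa3 (-0.87) turned. With flagged local backgrounds replaced, 3021 genes passed.

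Omitting each array in turn gave 1 to 3 imprinted growth genes higher and 0 lower, 3 to 6 other imprinted genes higher, 1 to 2 methylation genes higher, and, over all genes, 449 to 786 higher and 664 to 1093 lower. With genes dim on any array left out, 2 imprinted growth genes, 3 other imprinted genes and 1 methylation gene were higher. Without a filter on dim probes 554 genes were higher and 950 lower. All genes together had a median difference of 0.05 in the scaling used, 0.19 after median centring, 0.21 in the deposited values, -0.25 with normexp and -0.14 without a filter. With the replicate number as a block, 2654 genes passed against 2726, and 3 imprinted growth genes were higher. Tested probe by probe, an alternative chosen after seeing the data, all probes of 3 genes passed. Signal near background limits Peg10, Asb4, Kcnq1, Rasgrf1 and Dppa3.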

Other observations

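Among imprinted genes that the report does not describe, 3 of the Kcnq1 domain, which adjoins the Igf2 cluster, fell: Slc22a18, Phlda2 and Tspan32. Over all genes, 8.17% were lower. The domain did not move as a whole, since Kcnq1 itself, described above, rose by 3.27 on the log2 scale (limma adjusted p = 0.0168). Ascl2, Cd81 and Tssc4 of this domain did not pass (limma adjusted p = 0.475, 0.132 and 0.821). The genes of this domain were named after their values were seen. Slc22a18, a transporter gene, lay at 0.87 and 0.52 in OSK and at -1.44 and -1.20 in OSK+Glis1 and fell by 2.01 ± 0.21 SE on the log2 scale (limma adjusted p = 0.00672). Phlda2, which restrains placental growth, fell by 0.98 ± 0.21 SE (limma adjusted p = 0.0433) and Tspan32 fell by 2.66 ± 0.34 SE (limma adjusted p = 0.011). The cell cycle inhibitor gene Cdkn1c of the same domain lay at 3.46 and 3.70 in OSK and at 3.79 and 3.61 in OSK+Glis1, with a limma adjusted p of 0.730, and the noncoding RNA Kcnq1ot1 had a log2 difference of -0.11 (limma adjusted p = 0.819).

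Genes of the Prader-Willi and Angelman region and Sfmbt2 were also named after their values were seen. Peg12 lay at 0.39 and 0.43 in OSK and at 2.49 and 1.94 in OSK+Glis1 and rose by 1.80 ± 0.24 SE on the log2 scale (3.48-fold, limma adjusted p = 0.0121). Its neighbour Magel2 was not well above background in OSK+Glis1 and was at least 1.72-fold lower (limma adjusted p = 0.0317, for the fitted difference). Snrpn, Ndn, Mkrn3 and Ube3a had log2 differences of -0.09, 0.42, 0.45 and 0.23 and limma adjusted p-values from 0.376 to 0.816. Elsewhere Sfmbt2, a Polycomb-related gene expressed from the paternal copy in early embryo and placenta, rose by 2.85 ± 0.20 SE on the log2 scale (7.22-fold, limma adjusted p = 0.00307).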
